A study of Mus musculus with 12 samples.

Results

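The natriuretic peptide system of the left ventricle was described in mice that lack Gch1 in cardiomyocytes. The 8 genes were taken as a named system, with earlier results of these data known: the peptide genes Nppa, Nppb and Nppc, the convertase genes Corin and Furin, and the receptor genes Npr1, Npr2 and Npr3. All 8 were among the 26921 genes of the count table, and 7 of them were among the 11225 genes expressed highly enough to be tested. RNA was sequenced from 6 WT and 6 cmGch1 KO mice at 16 weeks of age, with 1 library for each mouse. WT mice were Gch1 flox/flox littermates without Cre. cmGch1 KO mice were Gch1 flox/flox and also carried α-MHC-Cre, a recombinase under the α-myosin heavy chain promoter, which is active in cardiomyocytes, so that other cardiac cells kept an intact Gch1. Both groups carried the floxed alleles, and every cmGch1 KO mouse but no WT mouse carried Cre. An effect of the recombinase and an effect of the deletion therefore cannot be told apart. The labels call the tissue heart, and the study's methods name the left ventricle.

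Atrial natriuretic peptide, made from Nppa, and B-type natriuretic peptide, made from Nppb, are hormones released by cardiomyocytes that lower blood volume and pressure. In the adult heart Nppa is transcribed mainly in the atria, while the ventricle raises both genes under stretch or overload. C-type natriuretic peptide, from Nppc, is made largely outside cardiomyocytes. The proteases corin and furin cut the peptide precursors to their active forms. The receptors encoded by Npr1 (for the atrial and B-type peptides) and Npr2 (for the C-type peptide) make cyclic GMP, and the receptor encoded by Npr3 takes up and clears all of these peptides.

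The total counts were between 22356463 and 37917806 in WT and between 19921398 and 35480715 in cmGch1 KO libraries. Levels are given as cpm, the share of a gene in the counts of its library, after TMM scaling, which corrects library sizes for differences in composition. The floxed gene was lower in the group labelled cmGch1 KO, as Gch1 had 10.7 ± 0.979 cpm in WT hearts and 5.51 ± 0.859 cpm in cmGch1 KO (SD, n = 6 each), with all cmGch1 KO values under the lowest WT value (log2 fold change -0.96, SE 0.11, edgeR adjusted p = 6.88e-04). In bulk tissue, fewer cells of a type and less RNA per cell cannot be told apart. The labels give no sex. cmGch1 KO replicates 2 and 3 had Xist at 87.1 and 99.6 cpm and 0 counts of 4 Y-linked genes, whereas the other 10 libraries had at most 0.235 cpm of Xist and 168 to 193 cpm of the Y-linked genes. These 2 libraries also had the lowest share of mitochondrially encoded counts, 14.9% and 16.1% against 18.3% to 22.9% elsewhere. The main results are therefore also given without them.

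The promoters of the peptide genes are shown first, because the transcription factor genes tested below include the families that bind the marked motifs. Nppb and Nppa lie side by side on the forward strand of chromosome 4 (GRCm38, GENCODE annotation), Nppb at chr4:147985788-147987205 and Nppa at chr4:148000722-148002079, with their starts 14.9 kb apart. The sequences are the 250 bases before the RefSeq start of Nppa at chr4:148000472-148000721 and 2 stretches of 30 bases before the RefSeq start of Nppb, at chr4:147985795-147985824 and chr4:147985857-147985886, all on the forward strand of GRCm38. For Nppa both annotations give the same start. For Nppb the RefSeq start, base 147985900, lies 112 bases inside the gene as GENCODE draws it, so that both Nppb stretches are within the GENCODE gene, and all Nppb positions here are counted from the RefSeq start. Capitals mark every match to 5 motifs searched on both strands: the TATA box TATAAA, the GATA factor motifs TGATAA and AGATAA, the NKX2-5 core AAGTG and the TEAD core GGAATG. No matches overlapped.
Nppa promoter: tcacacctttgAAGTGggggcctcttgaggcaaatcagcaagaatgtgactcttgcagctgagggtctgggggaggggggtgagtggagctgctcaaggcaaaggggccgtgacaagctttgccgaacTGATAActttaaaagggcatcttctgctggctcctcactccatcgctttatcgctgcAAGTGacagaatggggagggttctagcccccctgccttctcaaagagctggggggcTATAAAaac
Nppb GATA pair: GGAATGcagcTGATAAatcagAGATAAccc
Nppb TATA box: actcagccccagTATAAAaggcagaggcac
In Nppa, TATAAA began at position -9 from the annotated start, TGATAA at -122, and AAGTG at -239 and -65. In Nppb, TATAAA began at -31, AGATAA at -84, TGATAA at -95 and GGAATG at -105, so that the TEAD core and both GATA motifs stood within the first 30-base stretch.

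These letters are common. All 8 genes matched the RefSeq promoter table, with 9 promoters since Furin has 2 starts. Of all 32851 promoters in that table, 12.4% held the TATA box in the 250 bases before the start. A GATA motif was held by 16.6%, in the form TGATAA by 7.94% and in the other form by 9.99%. The NKX2-5 core was held by 40.7% and the TEAD core by 12.6%. A TATA box on the gene's strand that began 20 to 40 bases before the start was found in 1.99% of promoters. Nppb and Nppc (at -29) had one there, and so did the upstream Furin start (at -23). The receptor genes, Corin and the other Furin start held none of the 5 motifs. A match is a description of letters and does not show that a factor binds.

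Nppa was higher in cmGch1 KO hearts compared with WT, and it was the only gene of the system with a false discovery rate (FDR, the Benjamini-Hochberg adjusted p over all 11225 genes tested) under 0.05 in the edgeR quasi-likelihood test. Nppa ranged from 67.0 to 264 cpm in WT hearts, with a median of 148 cpm. In cmGch1 KO hearts it ranged from 202 to 681 cpm, with a median of 434 cpm. Of the 6 cmGch1 KO hearts, 5 were above every WT heart, and replicate 6 (202 cpm) fell between the highest WT heart, replicate 4 (264 cpm), and the next, replicate 1 (169 cpm). Mean levels were 153 ± 64.8 cpm in WT hearts and 442 ± 166 cpm in cmGch1 KO (SD, n = 6 each), a 2.89-fold difference (log2 fold change 1.53, SE 0.30, 95% interval 0.88 to 2.18, edgeR adjusted p = 0.024). An exact permutation test of the group means, two-sided, gave p = 0.00433, where 0.00216 is the smallest it can give. Each library held at least 1461 Nppa counts, so counting error was small beside the spread between mice, whose coefficient of variation was 42.4% in WT and 37.7% in cmGch1 KO. Over all genes tested, 0.677% were higher at this FDR and 0.445% were lower, 1.12% in all, and the median log2 fold change was -0.01. Of the 7 genes of the system tested, 1 was higher and 0 were lower by edgeR, 3 had an unadjusted p under 0.05 (Nppa, Nppb and Corin) against 11.5% of all genes, and 0 had ranges that did not overlap against 1.87% of all genes.

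The call of Nppa rested in part on single libraries. Without cmGch1 KO replicates 2 and 3 the mean of the group was 378 ± 147 cpm (SD, n = 4), still above WT (exact permutation p = 0.019, two-sided), and the fit across genes gave a log2 fold change of 1.31 with an edgeR adjusted p of 0.152. With the sex-linked expression (Xist against the Y-linked genes) as a covariate it was 1.34 with an adjusted p of 0.115. When each library was left out in turn, the log2 fold change stayed between 1.36 and 1.76, and the edgeR adjusted p was between 0.00908 and 0.0691. It was 0.05 or more without WT replicates 2, 3 or 5 and without cmGch1 KO replicates 2, 3 or 4.

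Nppb, by mean level the most abundant peptide transcript in WT, was also higher in most cmGch1 KO hearts but did not reach the FDR threshold. It ranged from 153 to 367 cpm in WT, with a median of 291 cpm, and from 266 to 836 cpm in cmGch1 KO, with a median of 575 cpm. Again 5 of the 6 cmGch1 KO hearts were above every WT heart. The exception was here replicate 4, at 266 cpm, which held the second highest Nppa of all hearts, at 555 cpm. Means were 269 ± 85.8 cpm in WT hearts and 567 ± 196 cpm in cmGch1 KO (SD, n = 6 each), a 2.11-fold difference. The log2 fold change was 1.07 (SE 0.26, 95% interval 0.52 to 1.63, edgeR adjusted p = 0.0701). The exact permutation test of the means gave p = 0.00866 over all libraries and p = 0.0381 without cmGch1 KO replicates 2 and 3. Without these 2 libraries the fit across genes gave a log2 fold change of 0.99 with an edgeR adjusted p of 0.32, and with the sex-linked covariate 0.998 with an adjusted p of 0.262. The adjusted p was 0.0196 when cmGch1 KO replicate 4 was left out (log2 fold change 1.22) and 0.0654 or more when any other library was. With the Wald test of DESeq2 in place of edgeR it was 0.00153.

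Nppc was close to absent from the ventricle. It had 0 to 4 counts in each library, 12 counts in all WT and 4 in all cmGch1 KO libraries, and 0 counts in 2 WT and 4 cmGch1 KO hearts. A count of 0 allows up to 3 counts, which is 0.0832 to 0.14 cpm in these libraries. Floors of this kind cover counting error only, and the reads carried no molecular identifiers. No difference was detectable at this depth (exact permutation p = 0.383).

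**Figure D1:**
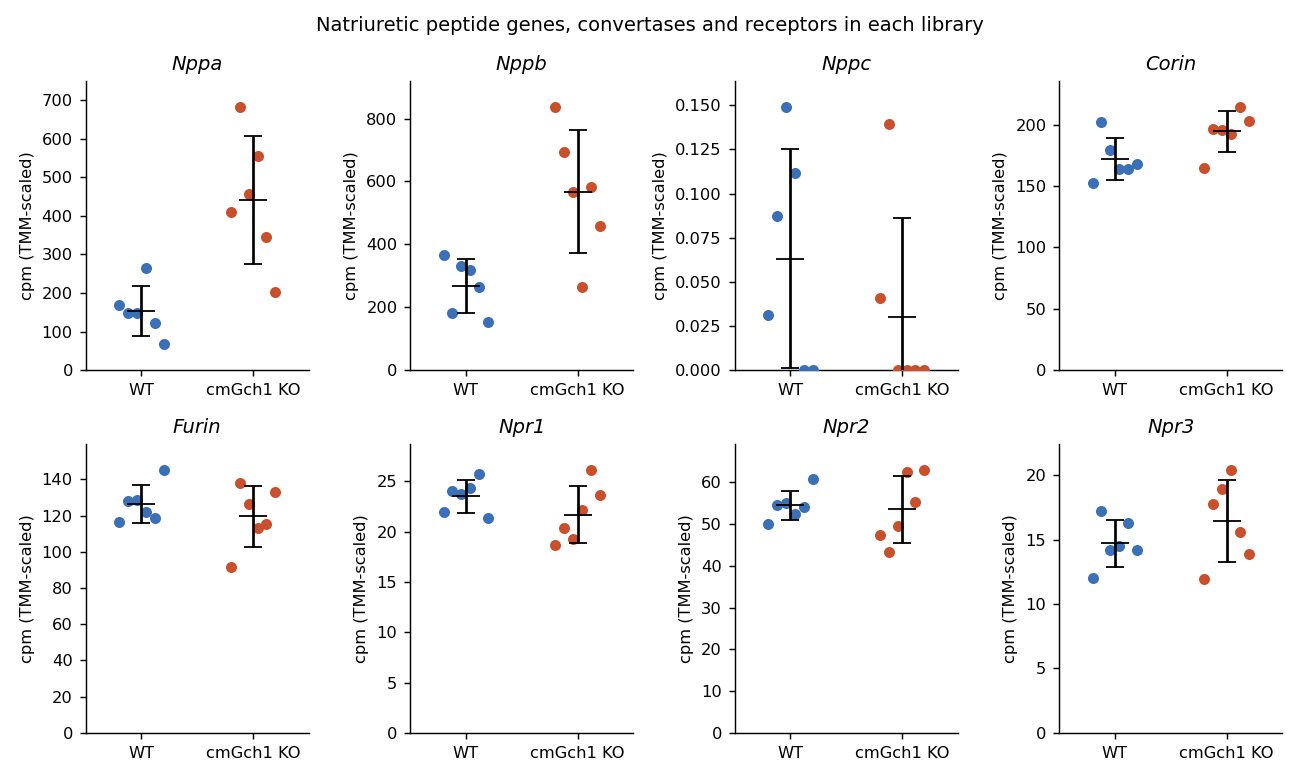
TMM-scaled cpm of the 8 genes in each library (points), with the mean and SD of the 6 WT and 6 cmGch1 KO hearts (bars), each vertical axis starting at 0. Nppa and Nppb each show 5 cmGch1 KO hearts above every WT heart, with Nppa means of 153 and 442 cpm, while the other 6 genes overlap more widely.

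The sum of the 3 peptide transcripts did not overlap between the groups. It was 220 to 582 cpm in WT hearts and 659 to 1375 cpm in cmGch1 KO hearts. Neither Nppa nor Nppb alone had ranges that did not overlap, against 1.87% of all single genes tested. No such share was computed for sums of genes. The genes were chosen with earlier results known, and this sum is given without a test. Nppa made up 30.5% to 45.4% of it in WT and 30.6% to 67.6% in cmGch1 KO, with replicate 4 the highest. The log2 ratio of Nppa to Nppb was -0.86 ± 0.45 in WT and -0.37 ± 0.83 in cmGch1 KO (SD, n = 6 each). The difference in the means did not pass the test (exact permutation p = 0.229, also 0.229 after Benjamini-Hochberg adjustment over the 4 ratios tested).

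No relation between Nppa and Nppb from heart to heart passed a test within a genotype. On log2 cpm, Pearson's r between Nppa and Nppb was 0.722 in WT (exact permutation p = 0.117, adjusted p = 0.306 over 6 relations, n = 6) and Spearman's rho was 0.6 (p = 0.242, adjusted p = 0.484). Without replicates 4 and 6, which lay farthest from the median of Nppa, r in WT was 0.348. In cmGch1 KO r was 0.028 (exact permutation p = 0.867) and rho was 0.086 (p = 0.919), and r was -0.739 without replicates 2 and 6.

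Nppa is also among the most abundant transcripts of the atria, so atrial markers were examined beside it. Of 8 listed atrial genes 7 were tested, and 0 passed the FDR threshold by edgeR in either direction. An unadjusted p under 0.05 was found for 1, against 11.5% of all genes. The median of the list was a log2 fold change of 0.11. Myl7 and Myl4, the atrial myosin light chains, had log2 fold changes of 0.11 and 0.17, sarcolipin (Sln), which inhibits the calcium pump, -0.36, Mybphl, a myosin-binding protein gene, 0.11, Dkk3 0.28 and Stard10 0.04. Their adjusted p values were 0.822 to 0.981 by edgeR. The sign of Sln turned (0.43) without WT replicate 4, and those of Myl4, Myl7 and Mybphl turned when WT replicate 5 or 6 or cmGch1 KO replicate 4 or 5 was left out. Kcnj3, a subunit of the acetylcholine-activated potassium channel, was 55.3 ± 3.39 cpm in WT hearts and 41.0 ± 7.32 cpm in cmGch1 KO (SD, n = 6 each), with ranges that did not overlap (log2 fold change -0.43, edgeR adjusted p = 0.0846). DESeq2 called it lower (adjusted p = 0.00997), and 1.87% of all genes had ranges that did not overlap. Bmp10, an atrial growth factor, was not tested: it had 0 counts in 8 of the 12 libraries and at most 1.31 cpm.

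The amount of atrial transcript varied widely between hearts. The summed level of the 8 atrial genes was 98.0 to 446 cpm in WT, with a median of 216 cpm, and 145 to 307 cpm in cmGch1 KO, with a median of 208 cpm. Within WT hearts Nppa followed this sum. Pearson's r on log2 values was 0.929 (exact permutation p = 0.00556, adjusted p = 0.0334 over 6 relations, n = 6), Spearman's rho was 0.943 (p = 0.0167, adjusted p = 0.1), and r was 0.935 without replicates 4 and 6, which lay farthest from the median. Within cmGch1 KO hearts r was 0.226 (exact permutation p = 0.689, adjusted p = 0.827) and rho was 0.086 (p = 0.919), with r of -0.304 without replicates 5 and 6. Whether the relation differed between the genotypes was not tested. For Nppb and the atrial sum, r was 0.653 in WT (exact permutation p = 0.153, adjusted p = 0.306, rho 0.771) and -0.375 in cmGch1 KO (p = 0.464, adjusted p = 0.696, rho -0.143), and 0.353 and -0.819 without the 2 hearts farthest from the median of the sum.

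Relative to the atrial sum, Nppa was higher in every cmGch1 KO heart than in any WT heart, with replicate 5 of each group closest. The log2 ratio was -0.47 ± 0.31 in WT, from -0.75 to 0.13, and 0.97 ± 0.67 in cmGch1 KO, from 0.17 to 2.13 (SD, n = 6 each). The difference was 1.44 (exact permutation p = 0.00216, the smallest possible, adjusted p = 0.00866 over 4 ratios), and 1.10 without cmGch1 KO replicates 2 and 3 (p = 0.00952). The choice of markers mattered. Kcnj3, Dkk3 and Stard10 make up much of the sum in hearts poor in the other markers, and with Myl4, Myl7, Sln and Mybphl alone, a choice made after the values were seen, the difference was 0.77 (exact permutation p = 0.266, adjusted p = 0.355). With the atrial sum as a covariate in the edgeR fit, also chosen after the values were seen, the log2 fold change of Nppa was 1.57 (adjusted p = 0.0074), and it was 1.23 (adjusted p = 0.031) with both the atrial and the sex-linked covariates. These fits give both genotypes a common slope on the atrial sum, where r was 0.929 in WT and 0.226 in cmGch1 KO. Whether a common slope holds was not tested. For Nppb the log2 ratio to the atrial sum was 0.39 ± 0.61 in WT and 1.34 ± 0.85 in cmGch1 KO (SD, n = 6 each), a difference of 0.95 (exact permutation p = 0.0541, adjusted p = 0.108). It was 0.29 with the 4 atrial markers alone (exact permutation p = 0.714, adjusted p = 0.714), 0.72 without cmGch1 KO replicates 2 and 3 (p = 0.181, adjusted p = 0.362) and 1.25 without cmGch1 KO replicate 4 (p = 0.00866, adjusted p = 0.0173).

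**Figure D2:**
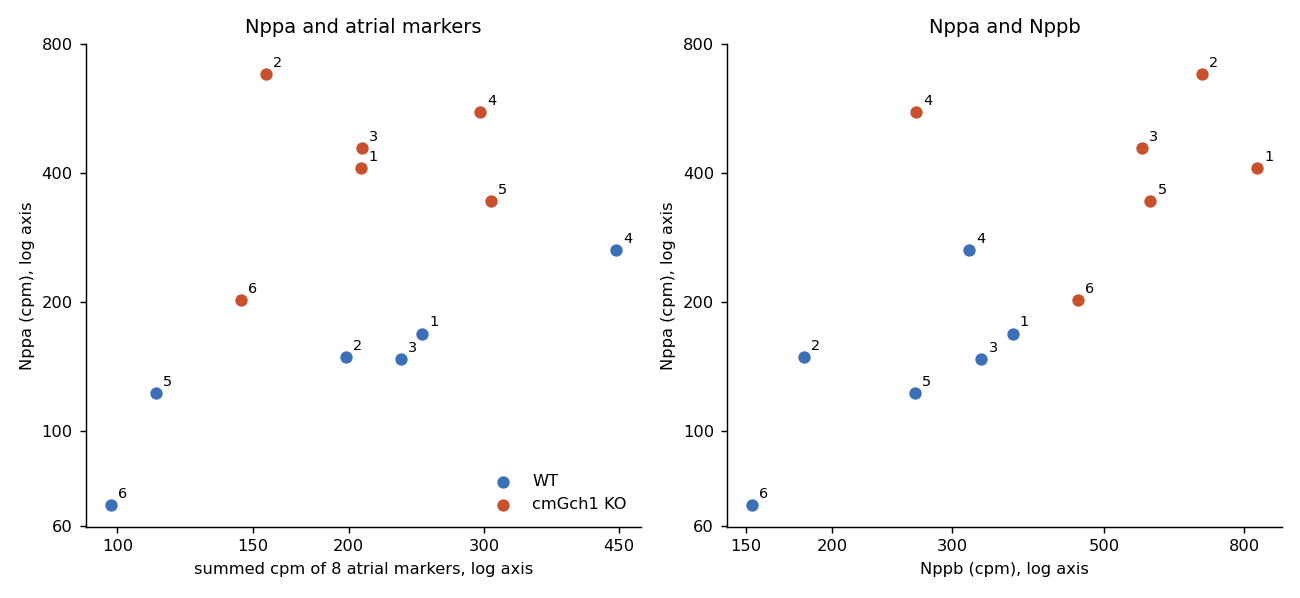
Nppa in each library against the summed cpm of 8 atrial markers (left) and against Nppb (right), all axes in cpm on a log scale, with replicate numbers beside the points. At a similar atrial sum the cmGch1 KO hearts lie above the WT hearts on the left, and cmGch1 KO replicate 4 stands apart on the right with 555 cpm of Nppa and 266 cpm of Nppb.

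No gene around the locus was called. Within 100 kb of Nppa or Nppb lay 12 other annotated genes, of which 6 were expressed highly enough to be tested. None of the 6 had an unadjusted p under 0.05, the lowest being 0.198, and edgeR, DESeq2 and limma each called 0. Clcn6, a chloride transporter gene, had a log2 fold change of 0.11 (95% interval -0.15 to 0.38). On the Nppb side these were 0.02 for 2510039O18Rik, 0.13 for Plod1, a collagen lysyl hydroxylase gene, and -0.03 for Mfn2, of mitochondrial fusion, and farther out on the Nppa side 0.02 for Agtrap, of the angiotensin receptor. The annotated antisense gene Gm13054 overlaps Nppa on the reverse strand and had 6 to 26 counts in each library, 49 in all WT and 97 in all cmGch1 KO libraries. The library kit marks strand, but the strand setting of the counting is not given in the sources used here, so these few counts and those of Nppa cannot be told apart with certainty.

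**Figure D3:**
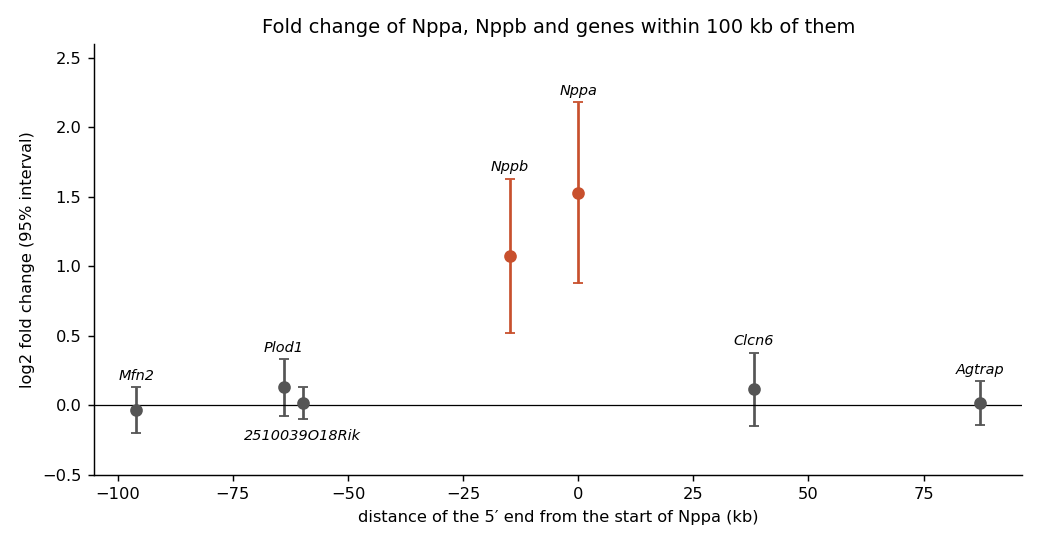
Log2 fold change (cmGch1 KO over WT) with its 95% interval (vertical axis) for Nppa, Nppb and 5 tested genes within 100 kb, placed by the distance of each gene's 5′ end from the start of Nppa in kb. Nppa (1.53) and Nppb (1.07) lie above 0, and the intervals of the 5 neighbours shown include 0.

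Neither convertase gene passed the FDR threshold. Corin encodes the membrane protease of cardiomyocytes that activates pro-atrial natriuretic peptide. It ranged from 153 to 202 cpm in WT hearts (median 166 cpm) and from 165 to 214 cpm in cmGch1 KO hearts (median 196 cpm), so that the groups overlapped and 2 cmGch1 KO hearts were above every WT heart. The means were 172 ± 17.1 and 194 ± 16.4 cpm (SD, n = 6 each), with a log2 fold change of 0.18 (SE 0.08, 95% interval 0.01 to 0.35, edgeR adjusted p = 0.392). The exact permutation p was 0.0476, and 0.114 without cmGch1 KO replicates 2 and 3. Furin, a protease of the secretory pathway that cuts many precursors, pro-B-type natriuretic peptide among them, ranged from 117 to 145 cpm in WT hearts and from 91.8 to 138 cpm in cmGch1 KO. Its log2 fold change was -0.08 (SE 0.09, 95% interval -0.28 to 0.12, edgeR adjusted p = 0.846, exact permutation p = 0.431), and 0.00 when libraries were scaled by their size alone.

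None of the 3 receptor genes passed the FDR threshold by edgeR, DESeq2 or limma, and 0 had an unadjusted p under 0.05. Npr1 was 21.3 to 25.7 cpm in WT (median 23.9 cpm) and 18.7 to 26.1 cpm in cmGch1 KO (median 21.2 cpm), with 3 cmGch1 KO hearts, replicates 1 to 3, below every WT heart. Its log2 fold change was -0.12 (SE 0.09, 95% interval -0.31 to 0.07, edgeR adjusted p = 0.712). Without cmGch1 KO replicates 2 and 3 it was -0.05 (edgeR adjusted p = 0.998). Npr2 was 50.1 to 60.6 cpm in WT hearts and 43.4 to 62.9 cpm in cmGch1 KO, with a log2 fold change of -0.03 (SE 0.09, 95% interval -0.23 to 0.18, edgeR adjusted p = 0.965). The sign of this value turned with the scaling and the covariates, up to 0.08. The clearance receptor gene Npr3 was 12.03 to 17.2 cpm in WT hearts and 11.96 to 20.4 cpm in cmGch1 KO, with a log2 fold change of 0.16 (SE 0.13, 95% interval -0.12 to 0.43, edgeR adjusted p = 0.738). Without cmGch1 KO replicates 2 and 3 it was 0.08 (edgeR adjusted p = 0.998).

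These intervals leave room for changes of up to about the bounds given, and the receptors were more variable in cmGch1 KO than in WT hearts by their coefficients of variation, 13.1% against 6.90% for Npr1, 15.1% against 6.49% for Npr2 and 19.4% against 12.3% for Npr3. That difference in spread was not tested. The log2 ratio of Npr3 to Npr1, which sets clearance against signalling receptor transcript, was -0.68 ± 0.14 in WT and -0.42 ± 0.34 in cmGch1 KO (SD, n = 6 each). The difference of 0.27 did not pass the test (exact permutation p = 0.119, adjusted p = 0.159 over 4 ratios) and was 0.11 without cmGch1 KO replicates 2 and 3 (p = 0.524).

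Levels per kb of annotated exon length allow only a rough comparison between genes. The length joins all annotated exons of a gene, whether or not they are used in these hearts. By this measure Nppb had the highest level in WT, at 345 ± 110 cpm per kb, and Nppa followed with 177 ± 74.9 cpm per kb (SD, n = 6). The ranges of these genes overlapped in both genotypes, and the cmGch1 KO levels were 726 ± 251 and 511 ± 192 cpm per kb. Corin came next in WT with 31.8 ± 3.18 cpm per kb, below the lowest Nppa value of 77.5 cpm per kb. Furin (13.8 ± 1.13 cpm per kb) and Npr2 (11.7 ± 0.757 cpm per kb) overlapped in range. Npr1 (4.92 ± 0.339 cpm per kb) and Npr3 (1.57 ± 0.192 cpm per kb) were separate from them and from each other, and Nppc was last at 0.0606 cpm per kb. The order was the same by mean in cmGch1 KO hearts.

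Beyond the 8 genes, 37 further genes of the pathway were listed, of which 36 were in the table and 32 were tested. Pde2a was not analysed here. Mme fell and 0 rose at an FDR under 0.05 by edgeR, and the same counts were given by DESeq2 and limma. An unadjusted p under 0.05 was found for 2 of the 32, against 11.5% of all genes. Of all genes tested, 0.445% were lower at this FDR and 1.87% had ranges that did not overlap. The median log2 fold change was -0.03, beside -0.01 over all genes. Mme encodes neprilysin, the membrane peptidase that degrades natriuretic peptides among other substrates. It was 12.03 to 13.03 cpm in the 6 WT hearts (median 12.2 cpm) and 4.76 to 8.84 cpm in the 6 cmGch1 KO hearts (median 6.70 cpm), so that every cmGch1 KO heart was below every WT heart. The WT hearts were close to each other, with a coefficient of variation of 3.74% against 22.8% in cmGch1 KO. Mean levels were 12.4 ± 0.463 and 6.61 ± 1.51 cpm (SD, n = 6 each), which is a log2 difference of -0.90 (SE 0.13, 95% interval -1.18 to -0.62, edgeR adjusted p = 0.00296, exact permutation p = 0.00216).

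The lower Mme level did not rest on single libraries. The 2 lowest values were those of cmGch1 KO replicates 2 and 3 (5.16 and 4.76 cpm), and without them the group mean was 7.44 ± 1.02 cpm (SD, n = 4, exact permutation p = 0.00952) with a log2 fold change of -0.73 (edgeR adjusted p = 0.00727). Mme kept an FDR under 0.05 in each of the 12 other settings, at log2 fold changes from -0.93 to -0.66, and in each of the 12 fits that left out 1 library, at -1.001 to -0.83.

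**Figure D4:**
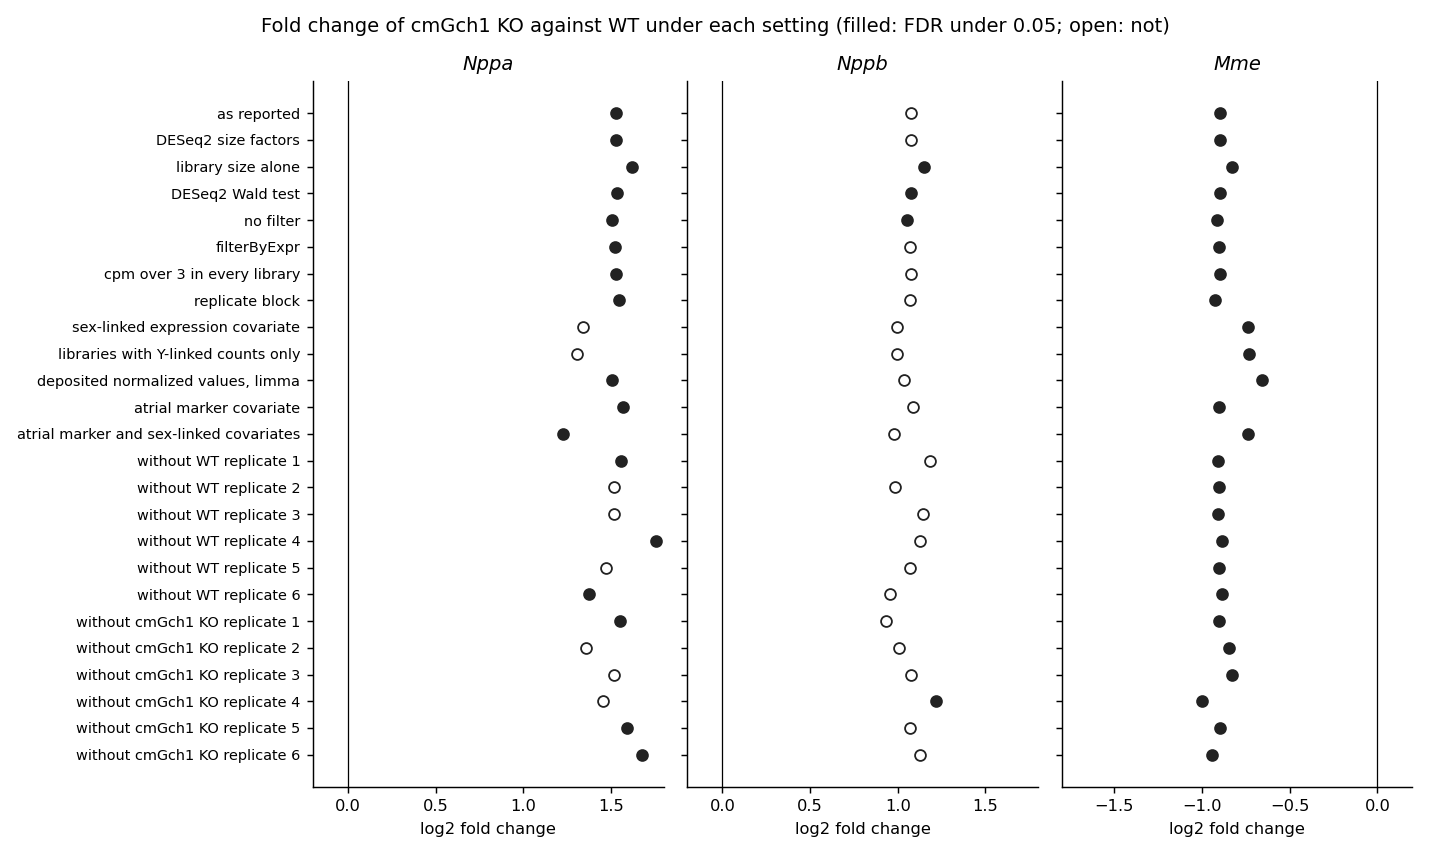
Log2 fold change of Nppa, Nppb and Mme (horizontal axes) in the reported fit, in 12 other settings and with each library left out (rows), filled where the FDR was under 0.05 and open where it was not. Nppa stays between 1.23 and 1.76 with some open points, Nppb between 0.93 and 1.22 with mostly open points, and Mme between -1.001 and -0.66 with all points filled.

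The other genes of peptide processing and cyclic GMP signalling gave no call. Pcsk6, a convertase that activates corin, had a log2 fold change of 0.08, Pcsk7 0.01 and Ide, which encodes insulin-degrading enzyme, -0.17. Pcsk5, Dpp4 and Ostn (osteocrin, a ligand of the clearance receptor) were too low to be tested. Of 14 listed genes of cyclic GMP effectors and phosphodiesterases 12 were tested, with a median log2 fold change of 0.08. Pde5a, the cyclic GMP phosphodiesterase that sildenafil inhibits, was 4.89 ± 0.789 cpm in WT hearts and 4.02 ± 0.471 cpm in cmGch1 KO (SD, n = 6 each). It had an unadjusted p under 0.05 and a log2 fold change of -0.29 (SE 0.13, edgeR adjusted p = 0.402). The cyclic GMP-dependent kinase gene Prkg1 had a log2 fold change of -0.12, Pde9a, a cyclic GMP phosphodiesterase gene, 0.25, Pde3a 0.08 and phospholamban (Pln) -0.13. Leaving out Mme and Pde5a, the 30 tested pathway genes lay between -0.24 and 0.25, and the lowest adjusted p was 0.459.

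The genes of the transcription factors known to act on the Nppa and Nppb promoters gave no call. All 16 were tested, and 0 had an FDR under 0.05 by edgeR, DESeq2 or limma. An unadjusted p under 0.05 was found for 0, against 11.5% of all genes, and the median log2 fold change was -0.05. Gata4 and Gata6, of the family whose motif is marked in the sequences above, had log2 fold changes of 0.15 and 0.00. Nkx2-5 had 0.14, Tbx5 0.03, Tbx20 0.23, Srf 0.12 and Tead1 -0.05. The repressor genes Rest and Jarid2 had -0.12 and -0.11, and Hey2, which restrains atrial genes in the ventricle, had -0.18. These are transcript levels and say nothing of the proteins' activity.

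**Figure D5:**
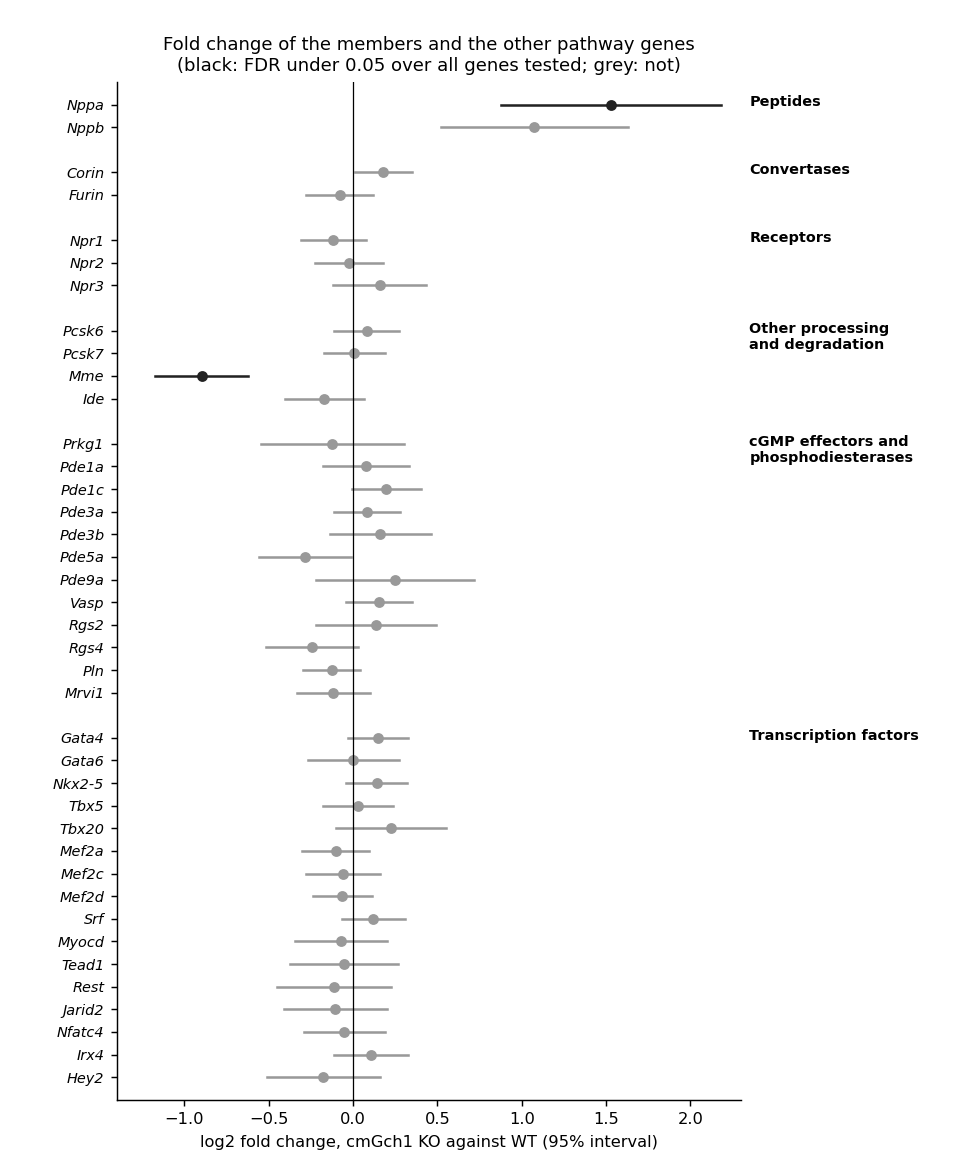
Log2 fold change (cmGch1 KO over WT) with its 95% interval (horizontal axis) for the 7 tested genes of the peptide system and the 32 tested genes of the other pathway lists, grouped by role. Black marks an FDR under 0.05, reached by Nppa (1.53) and Mme (-0.90), and grey marks the rest.

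Other transcripts that the ventricle raises under load, with the peptides, were examined from a list of 6. Ankrd1 and Ccn2 rose at an FDR under 0.05, as did 0.677% of all genes tested, and 4 did not pass it. Ankrd1, a cardiac ankyrin repeat protein gene of the stretch response, was 915 to 1579 cpm in WT hearts and 2098 to 3128 cpm in cmGch1 KO hearts (log2 fold change 1.13, SE 0.14, edgeR adjusted p = 9.80e-04). Ccn2, a matricellular protein gene, was 52.7 to 68.0 cpm in WT hearts and 79.8 to 134 cpm in cmGch1 KO (log2 fold change 0.88, SE 0.10, edgeR adjusted p = 6.88e-04). In both the groups did not overlap, which held for 1.87% of all genes. Skeletal actin (Acta1) was 273 ± 39.7 cpm in WT hearts and 469 ± 174 cpm in cmGch1 KO (SD, n = 6 each, log2 fold change 0.78, SE 0.21, edgeR adjusted p = 0.118). The slow myosin heavy chain gene Myh7 had a log2 fold change of 0.13 and Xirp2 -0.10, which was 0.03 without WT replicate 2. Fhl1 had 0.19, and -0.10 without cmGch1 KO replicate 2, which stood at 260 cpm while the other 5 cmGch1 KO hearts lay between 104 and 137 cpm and the WT hearts between 116 and 125 cpm. These genes were listed with earlier results of the same hearts known and are no independent evidence of a direction.

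Markers of the cell types of the heart were set beside these values, and edgeR called 0 of them in either direction. A list of 7 cardiomyocyte genes, drawn up for the ventricle, was led by Myh6, Tnnt2, Myl2 and Myl3. This list was not taken to tell the chambers apart. Its summed level was 46380 to 50780 cpm in WT hearts and 40180 to 45060 cpm in cmGch1 KO without overlap. Without replicates 2 and 3 it was 41570 to 45060 cpm in cmGch1 KO. Of the 7 genes 6 were lower and 1, Irx4 (log2 fold change 0.11), was higher. The median log2 fold change of the list was -0.18, and 0 of the 7 had an unadjusted p under 0.05. The sum of 5 macrophage genes was 102 to 118 cpm in WT hearts and 119 to 143 cpm in cmGch1 KO, again without overlap. Each of the 5 had an unadjusted p under 0.05 (median log2 fold change 0.27) and 0 an FDR under 0.05 by edgeR, DESeq2 or limma. Over all genes tested, 11.5% had an unadjusted p under 0.05, and 1.87% had ranges that did not overlap. Of 6 fibroblast genes 2 had an unadjusted p under 0.05 (median 0.19), 0 were called by edgeR and 1 by DESeq2. Of the endothelial (5), endocardial (5), mural (6), conduction system (4) and epicardial (4, of which 1 tested) genes, 0 were called by edgeR, DESeq2 or limma, and 0, 1, 0, 1 and 0 had an unadjusted p under 0.05. The part of these sums in the levels of Nppa and Nppb was not tested.

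The genes most like Nppa and Nppb from heart to heart were different for each peptide. Likeness was measured as Pearson's r of log2 cpm over the 12 libraries after the mean of each genotype was subtracted, among 11224 other genes, and is given as a description without a test. For Nppa these were Zfp27 (0.951), Tsr3 (0.926), Dph5 (0.926), Tagln (0.914) and Hdac1 (0.911). For Nppb they included Exosc7 (0.983), Mrpl54 (0.947), Esrra (0.944) and Rpl41 (0.937). None of these genes had an unadjusted p under 0.05 between the genotypes. Between Nppa and Nppb r was 0.362 over both genotypes, beside 0.722 within WT and 0.028 within cmGch1 KO. The pooled value put Nppb at rank 3338 for Nppa and Nppa at rank 3589 for Nppb, so that many genes had a higher coefficient. The highest of 11224 coefficients over 12 libraries are extreme by selection. How many as high arise without any relation was not tested.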

How the data were processed

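Total RNA of the left ventricle was made into stranded (dUTP) paired-end libraries, sequenced on a NovaSeq instrument, aligned with HISAT2 to GRCm38 and counted per gene with featureCounts by the authors, who deposited raw counts. Neither the annotation release nor whether strand was used in counting is given in the sources used here. The authors also deposited normalized values on a log2 scale, whose tool is not given, and these served as an alternative with limma 3.58.1. Symbols came from GENCODE M21 (98.7% of IDs matched), promoters from RefSeq.

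Groups followed the genotype labels, with mice as the unit (6 against 6). Within each genotype no pair of libraries agreed within sampling noise (lowest chi-square per degree of freedom 13.4). Genes with more than 3 cpm in at least 6 libraries were tested by the quasi-likelihood test of edgeR 4.0.16 with TMM scaling in R 4.3.3, and p-values were adjusted over all genes tested. The procedure was checked on simulated counts. Single values were tested by exact permutation in scipy 1.17.1. The genes and lists were chosen with earlier results of these data known. Named were the 8 genes, Gch1, the genes of the pathway, transcription factor and load lists with an unadjusted p under 0.05, all atrial markers, the tested neighbours within 100 kb, the 5 genes most like Nppa and the 5 most like Nppb, and Xist with 4 Y-linked genes. Others are named as examples of their list. A neighbour and a gene most like Nppb are not reported here. The alternatives were DESeq2 size factors, library size alone, the DESeq2 1.42.0 Wald test, 3 other filters, a replicate block, a sex-linked covariate, the 10 libraries with Y-linked counts only, and each library left out. Atrial covariates and a shorter atrial list were added after the data were seen.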

Additional observations from a re-analysis of the deposited data

Results flagged for a closer look

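In each group of 6 libraries, a value was singled out when its gap to the nearest other value, as a share of the group's range, was above the 95% critical value of Dixon's test, 0.625. Of 86 groups of values examined 4 met this, and chance alone flags about 1 in 20 (5%). Fhl1 was not among the values examined, so its high level in cmGch1 KO replicate 2, given above, was not judged by this rule. Nppc was 0.1395 cpm in cmGch1 KO replicate 2, a value of 3 counts, against 0.0411 cpm or less in the other 5 cmGch1 KO hearts. The atrial growth factor gene Bmp10 was 1.31 cpm in WT replicate 4, which also had the highest summed atrial markers of all hearts and the highest Nppa of the WT hearts, against at most 0.0318 cpm in the other WT hearts. Bmp10 was 0.0603 cpm in cmGch1 KO replicate 4, from 2 counts, and 0 in the other cmGch1 KO hearts. Tsr3, among the genes most like Nppa across hearts, was 7.71 cpm in WT replicate 4, where the next WT heart had 6.23 cpm and the lowest 5.46 cpm.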

How the results depend on the processing

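Of 486 values recomputed under other settings or without a library, 450 were unchanged. For fold changes and ratios this means the same direction and side of the threshold, and for counts of called genes an equal count. Of the rest, 10 were counts that moved, 8 reversed sign, 9 gained a call and 9 lost one. Many unchanged values belong to genes never called, Furin and the receptor genes among them. Nppa kept its call in 10 of 12 other settings and 6 of 12 with a library left out. Of the 8 natriuretic genes, 1 was called higher in the reported fit, 2 with library size alone, with the DESeq2 Wald test and with no filter on low counts, 0 with the sex-linked covariate and 0 with only the libraries that had Y-linked counts, and 0 to 1 with a library left out. Without cmGch1 KO replicate 4 the 1 gene called was Nppb (edgeR adjusted p = 0.0196), while Nppa was at 0.0522. The cause of these moves was not tested. The difference in the log2 ratio of Nppb to the atrial markers ranged from 0.78 to 1.25 with a library left out, and with 4 atrial markers alone it was 0.29 for Nppb and 0.77 for Nppa. The sign reversed for Furin with library size alone (0.0022) and for Npr2 with library size alone (0.048), the sex-linked covariate (0.060), only the libraries with Y-linked counts (0.070) and both added covariates (0.075), and Npr2 ranged from -0.083 to 0.021 with a library left out, above 0 without WT replicate 6, cmGch1 KO replicate 1 or cmGch1 KO replicate 2. Acta1 was called by DESeq2 (adjusted p = 0.0125), with the replicate block (0.0285) and without cmGch1 KO replicate 6 (0.0293).

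The labels do not say whether replicate numbers pair the mice. The correlation of same-numbered deviations was 0.677, 0.402 and 0.509 for numbers 1, 5 and 6. Each of these WT libraries correlated best with the cmGch1 KO library of its own number. For numbers 2, 3 and 4 the correlation was -0.096, -0.078 and -0.129, and the best match was another number. With the number as a block the count of natriuretic genes called higher was 1, with Nppa at 1.54 (adjusted p = 0.00133) and Nppb at 1.07 (adjusted p = 0.0576). Depth limits what can be said of Nppc, Bmp10 and Gm13054, which were near 0 counts.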
